A study of Rattus norvegicus with 14 samples.

Results

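The miR-15, miR-16, miR-195 and miR-497 family was followed in the serum of neonatal rats with and without developmental hypothyroidism. Its members were all rows of the deposited count table named miR-15a, miR-15b, miR-16, miR-195 or miR-497, in either arm, and 6 of the 375 listed mature miRNAs qualified. These were miR-16-5p, miR-15b-5p, miR-15b-3p, miR-195-5p, miR-195-3p and miR-497-5p. miR-15a was not analysed here.

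Serum came from female Long Evans rat pups on postnatal day 8, with 1 pup taken from each litter. Dams of the 8 control pups received the vehicle (0 ppm), and the labels class these pups as euthyroid. Dams of the 6 PTU pups drank water with 3 ppm PTU (propylthiouracil, an inhibitor of thyroid hormone synthesis), given in pregnancy or lactation according to the labels, and the labels class their pups as hypothyroid and the dams as mildly so. All libraries were of cell-free total RNA, so both groups share strain, sex, age and source. Listed counts summed to 452961 to 2119979 per library.

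miRNAs of this family are best known as brakes on cell division: in human and mouse cells they repress cyclins of the G1 phase, and miR-15 and miR-16 repress the survival factor BCL2. Target choice rests largely on the seed, the stretch near the 5′ end of the mature miRNA that pairs with messenger RNA. miR-16 is abundant in red blood cells and is often used as a reference in serum assays, and in the mouse heart miR-195 rises after birth, when cardiomyocytes stop dividing.

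The mature sequences are shown because the family is defined by its seed, and because they show which members a read could be confused between. They are from RefSeq (rat assembly GRCr8), 5′ to 3′, with the seed (bases 2 to 8) in capitals. The 4 guide arms, the abundant strand of each precursor, share 1 seed.
miR-16-5p: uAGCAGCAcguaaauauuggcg
miR-15b-5p: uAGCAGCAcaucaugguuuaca
miR-195-5p: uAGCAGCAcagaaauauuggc
miR-497-5p: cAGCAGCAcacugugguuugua
The opposite arms listed for miR-15b and miR-195 have other seeds.
miR-15b-3p: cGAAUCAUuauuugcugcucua
miR-195-3p: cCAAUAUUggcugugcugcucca

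Of the 343 listed miRNAs with a RefSeq mature sequence, 5 carried the seed of miR-16-5p: the 4 guide arms and miR-322-5p. Compared position by position from the 5′ end, miR-16-5p and miR-195-5p differed at only 2 of 21 bases (G10A and U11G, with the base of miR-16-5p first and positions counted from its 5′ end). All other pairs of guide arms in the family differed at 6 to 11 positions. In the RefSeq gene table the precursors of miR-15b and miR-16 are each other's nearest miRNA genes on chromosome 2 and lie within Smc4, a condensin subunit gene. Those of miR-195 and miR-497 are each other's nearest on chromosome 10. A count of mature miR-16-5p does not show its precursor. Whether all of it came from the Smc4 locus was not tested, also where miR-16-5p is grouped with miR-15b below. The deposited table names no genome build, so no positions are given.

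Family members spanned almost the whole range of serum abundance. miR-16-5p was the second most abundant of the 375 listed miRNAs and took 8.97% ± 1.15 of the listed counts in controls (SD, n = 8) and 10.1% ± 3.47 in PTU pups (SD, n = 6). It made up 97.1% to 99.2% of the family's counts in each library. Levels are given as CPM, counts scaled to a common library total with edgeR's TMM factors. Mature miRNAs are so alike in length that no length correction was applied.

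Averaged over the 14 libraries, the order was miR-16-5p, miR-15b-5p, miR-15b-3p, miR-195-5p, miR-497-5p and miR-195-3p. The mean was 94756 CPM for miR-16-5p, 566 CPM for miR-15b-5p and 10.3 CPM for miR-195-3p. Neighbours in this order did not overlap in range, except that miR-15b-3p exceeded miR-195-5p in 11 of 14 libraries. The ranges of miR-15b-5p and miR-15b-3p came close to touching (lowest 317 CPM against highest 313 CPM), but the 5p arm was the higher in each of the 14 libraries. miR-195-3p rested on 5 to 20 counts per library, against 35 to 128 for miR-497-5p and 43165 to 284256 for miR-16-5p, so its values carry the largest counting error.

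**Figure D1:**
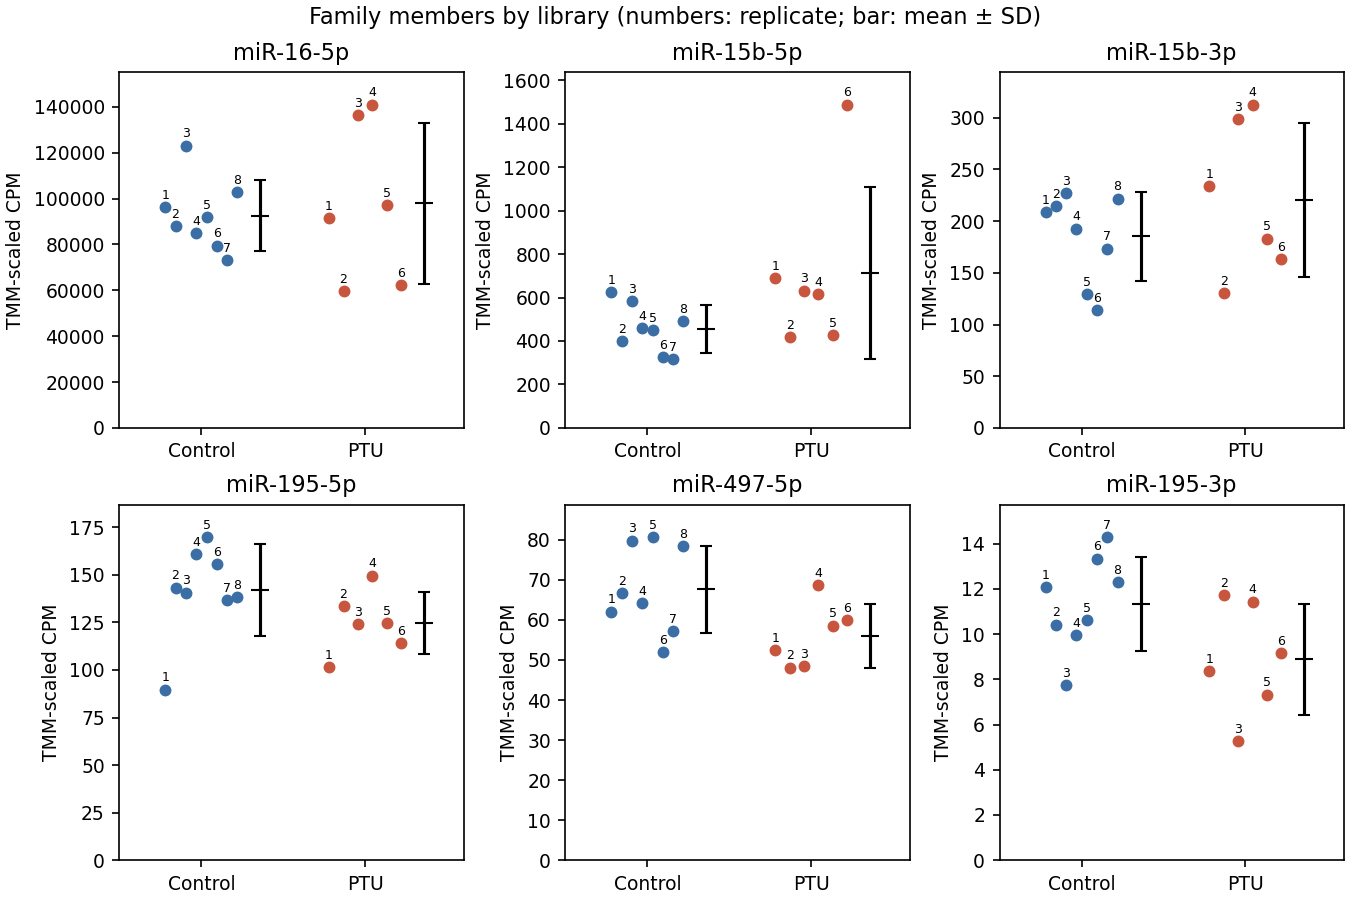
TMM-scaled CPM (vertical axes from 0) of each of the 6 family members, 1 panel per miRNA, with each point 1 library, its number the replicate, and the bar the group mean ± SD. Control and PTU points overlap in every panel, and PTU replicate 6 stands at 1488 CPM for miR-15b-5p, far above the other libraries.

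No family member passed a false discovery rate of 0.05 between PTU and control pups, and neither did any other miRNA (0 of 6 members and 0% of the 357 miRNAs tested; quasi-likelihood test of edgeR, Benjamini-Hochberg adjustment over all 357). At an unadjusted p under 0.05 there was 1 member, miR-15b-5p, where the share over all tested miRNAs was 13.2%. DESeq2 and edgeR's likelihood ratio test also called 0 members and had 1 at that unadjusted level, and limma-voom called 0 and had 0. With upper-quartile factors 0 members were called, but those at that unadjusted level were 2 others, miR-497-5p and miR-195-3p. Under that scaling the edgeR adjusted p was 0.289 for miR-497-5p, 0.333 for miR-195-3p and 0.333 for miR-15b-5p. Log2 fold changes were positive for 3 of the 6 members, miR-16-5p, miR-15b-5p and miR-15b-3p, and negative for the 3 of the miR-195/497 locus. The sign turned in 5 of 24 alternative fits for miR-16-5p and in 1 of 24 for miR-15b-3p. Over all tested miRNAs 57.7% were positive. The median was -0.05 for the members and 0.03 for all miRNAs. Ranges of the groups overlapped for 6 of 6 members, while 0.56% of all tested miRNAs were separated. In serum, a change in the number of cells releasing a miRNA and a change in the amount each cell releases cannot be told apart.

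miR-16-5p had nearly the same mean in both groups but a wider spread in PTU pups. Control libraries ran from 73230 CPM through a median of 89910 to 123020 CPM, and PTU libraries from 59503 through 94146 to 140946 CPM. PTU replicates 3 and 4 lay above every control library and PTU replicates 2 and 6 below every one. On the log2 scale PTU pups were 0.08 ± 0.19 (SE) higher (95% interval -0.31 to 0.48; edgeR adjusted p = 0.907). The sign turned with upper-quartile factors (-0.022) and without PTU replicate 3 (-0.042) or 4 (-0.03).

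This spread was measured on the log2 CPM scale as 0.23 (SD, n = 8) in controls and 0.53 (SD, n = 6) in PTU libraries. Ranked from the steadiest of the 357 tested miRNAs, miR-16-5p was number 82 in controls and number 272 in the PTU group. The PTU SD exceeded the control SD for 4 of 6 members and for 206 of 357 miRNAs. The difference in spread was not tested.

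miR-15b-5p, the partner of miR-16 at the Smc4 locus, had the largest fold change of the family, and a single library carried much of it. Its control libraries ran from 317 CPM through a median of 454 to 626 CPM. The PTU libraries ran from 419 through 624 to 1488 CPM, and 4 of 6 lay above the control median. PTU replicate 6 had 2109 counts, and the next highest PTU library had 687 CPM. Over all libraries the fitted difference was 0.64 ± 0.26 (log2, SE; 95% interval 0.10 to 1.19; edgeR unadjusted p = 0.0225, adjusted p = 0.261). Without PTU replicate 6 it was 0.26 ± 0.19 with an adjusted p of 0.594 (edgeR).

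Its opposite arm, miR-15b-3p, did not share the high value. The control range was 114 to 227 CPM with a median of 201 CPM, and the PTU range was 130 to 313 CPM with a median of 209 CPM. PTU replicates 3 and 4 were the highest, as for miR-16-5p, and PTU replicate 6 stood at 163 CPM, inside the control range. PTU pups differed from controls by 0.25 ± 0.22 (log2, SE; edgeR adjusted p = 0.644), and by 0.14 without PTU replicate 3.

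All listed products of the miR-195/497 locus had lower means in PTU pups, none past the threshold. miR-195-5p ran from 89.7 CPM through 142 to 170 CPM in controls and from 101 through 124 to 150 CPM in PTU pups. Only 1 of 6 PTU libraries lay above the control median, and Control replicate 1 was the lowest library of either group. Its log2 fold change was -0.19 ± 0.15 (95% interval -0.51 to 0.13; edgeR adjusted p = 0.595; error as SE).

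miR-497-5p, made from the same locus, ran from 51.9 through 65.4 to 80.8 CPM in controls and from 48.1 through 55.6 to 68.6 CPM in PTU pups. Again 1 of 6 PTU libraries exceeded the control median. A log2 fold change of -0.27 ± 0.15 was fitted (95% interval -0.59 to 0.05; edgeR adjusted p = 0.451; error as SE). Its dispersion was among the smallest in the table: the biological coefficient of variation was 0.187, number 10 from the lowest of 357, against a median of 0.26. miR-195-3p, the scarce arm, ran from 7.76 to 14.3 CPM in controls and from 5.27 to 11.7 CPM in PTU pups, a difference of -0.39 ± 0.23 (log2, SE; edgeR adjusted p = 0.455). Without PTU replicate 3 it was -0.23.

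**Figure D2:**
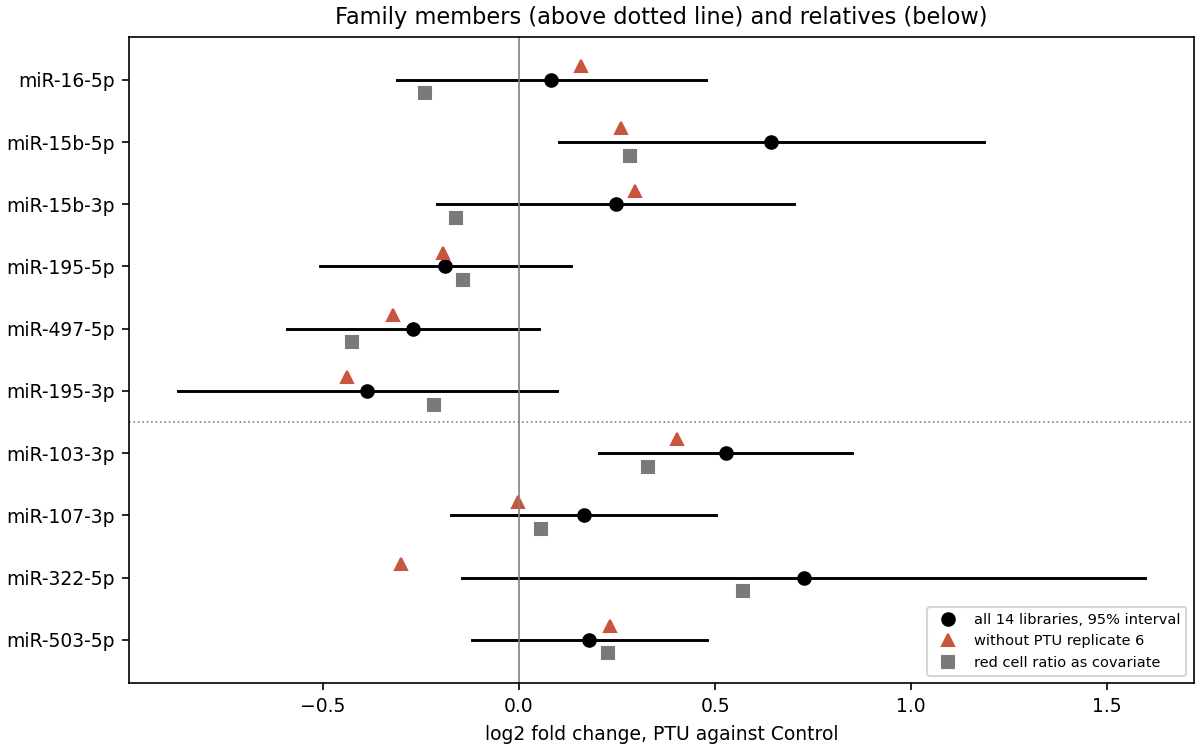
Log2 fold change of PTU against Control (horizontal axis) for the 6 family members, above the dotted line, and 4 relatives below it. Black points and lines are the estimate and its 95% interval from all 14 libraries, triangles the estimate without PTU replicate 6 and squares that with the red cell ratio as covariate. The triangle of miR-15b-5p lies at 0.26 against 0.64 with all libraries.

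Ratios of counts within a library do not depend on the scaling, and 5 were compared between groups by exact two-sided permutation tests over all assignments of the libraries (smallest possible p 0.000333), adjusted over the 5. miR-16-5p outnumbered miR-15b-5p by 154 to 245 times in control libraries and by 41.8 to 229 times in PTU libraries. On the log2 scale the ratio averaged 7.68 ± 0.21 in controls (SD, n = 8) and 7.17 ± 0.94 in PTU pups (SD, n = 6; exact permutation p = 0.117, adjusted p = 0.54). PTU replicates 1, 2 and 6 lay below every control library, and without replicate 6 the difference moved from -0.52 to -0.16.

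The 5p arm of miR-15b exceeded the 3p arm by 1.82 to 3.48 times in controls and 1.97 to 3.22 times in 5 of the PTU libraries, but 9.13 times in PTU replicate 6. Mean log2 ratios were 1.30 ± 0.33 (SD, n = 8) and 1.62 ± 0.82 (SD, n = 6; exact permutation p = 0.385, adjusted p = 0.54). Without PTU replicate 6 the difference fell from 0.32 to 0.0051.

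The log2 ratio of miR-195-5p to miR-497-5p, the guide arms of the other locus, averaged 1.06 ± 0.33 in controls (SD, n = 8) and 1.15 ± 0.22 in PTU pups (SD, n = 6; exact permutation p = 0.57, adjusted p = 0.57). It was 0.09 higher in PTU pups, and 0.01 without Control replicate 1. The arm ratio of miR-195 averaged 3.58 ± 0.43 and 3.79 ± 0.40 on the log2 scale (exact permutation p = 0.377, adjusted p = 0.54), a difference of 0.21 that was 0.07 without PTU replicate 3. miR-16-5p outnumbered miR-195-5p by 510 to 1072 times in controls and 445 to 1098 times in PTU pups (exact permutation p = 0.432, adjusted p = 0.54). These sequences differ at 2 compared bases, and whether reads of miR-16-5p were counted as miR-195-5p was not tested. The log2 CPM of the pair had a Pearson correlation of 0.06 over the 14 libraries.

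**Figure D3:**
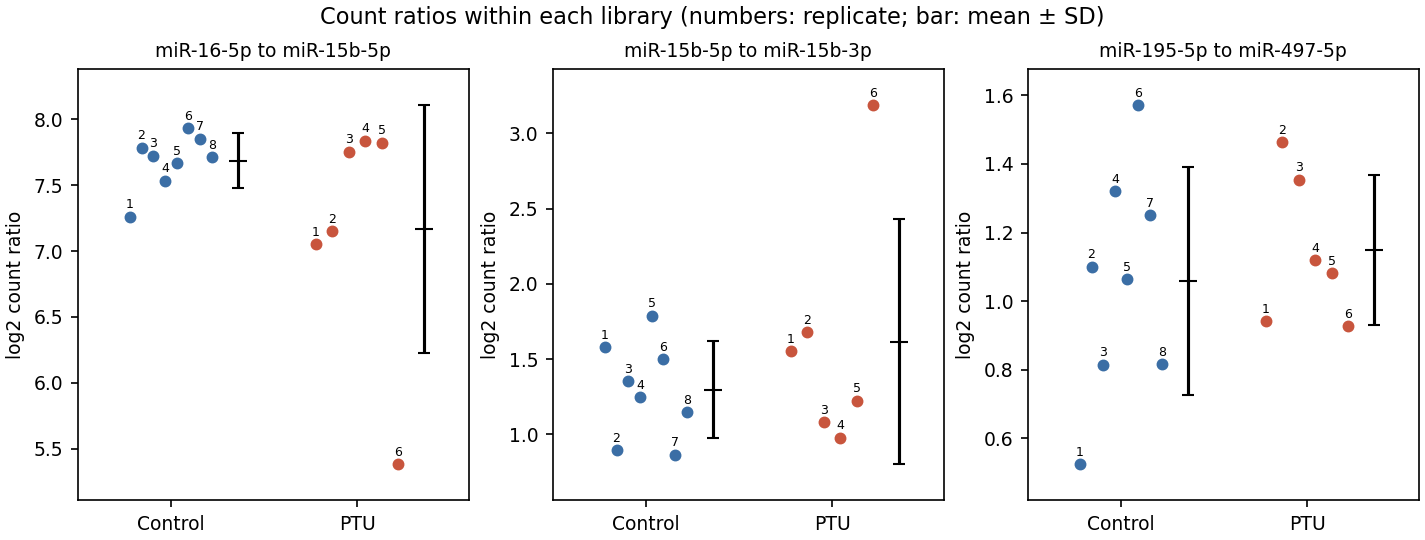
Log2 count ratios within each library (vertical axes) for miR-16-5p to miR-15b-5p, miR-15b-5p to miR-15b-3p and miR-195-5p to miR-497-5p, with points for libraries numbered by replicate and bars for the group mean ± SD. PTU replicate 6 is the lowest point of the first panel at 5.38 and the highest of the second at 3.19.

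Red cell miRNAs also differed between libraries. Of 5 erythroid markers 4 were listed, none at 0, and their summed level ran from 1770 to 6018 CPM in controls and from 2829 to 19148 CPM in PTU pups. All 4 had positive log2 fold changes, 3 of them at an unadjusted p under 0.05 and 0 past the false discovery rate of 0.05 (edgeR). Among all tested miRNAs 57.7% were positive and 13.2% had an unadjusted p under 0.05 (edgeR). The 4 are both arms of miR-144 and of miR-451, so they are not separate markers. The erythroid miR-451-5p was lowest in Control replicate 6 (1457 CPM) and PTU replicate 2 (2273 CPM), high in PTU replicates 3 and 4 (8440 and 8034 CPM) and highest in PTU replicate 6 (17616 CPM). Platelet, leukocyte, muscle and liver lists had medians of 0.02, -0.06, -0.16 and -0.18, with 0 members past the threshold. The platelet list was miR-223-3p and both arms of miR-126a, so not all of its miRNAs are separate markers. At an unadjusted p under 0.05 there were 2 of 4 leukocyte, 1 of 4 muscle, 0 of 3 platelet and 0 of 3 liver miRNAs, beside 13.2% of all tested (edgeR). The leukocyte list held 2 positive and 2 negative fold changes. Its summed level ran from 6952 to 10666 CPM in controls and from 6182 to 18127 CPM in PTU pups.

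Over the 13 libraries other than PTU replicate 6, the log2 CPM of miR-451-5p had Pearson correlations of 0.88 with miR-15b-3p, 0.77 with miR-16-5p and 0.62 with miR-15b-5p. The values were 0.27 with miR-497-5p, -0.22 with miR-195-5p and -0.53 with miR-195-3p. With PTU replicate 6 included (n = 14) they became 0.56, 0.25 and 0.80 for the miR-15b/16 products in the same order. For miR-497-5p, miR-195-5p and miR-195-3p they became 0.17, -0.32 and -0.47. Within the 6 PTU libraries they were 0.33 for miR-15b-3p, 0.20 for miR-16-5p and 0.81 for miR-15b-5p. There miR-497-5p had 0.52, miR-195-5p -0.08 and miR-195-3p -0.29. Within the 8 controls the correlation with miR-451-5p was 0.83 for miR-15b-3p, 0.64 for miR-497-5p, 0.59 for miR-15b-5p and 0.46 for miR-16-5p, so a positive value was not limited to 1 locus. In PTU replicate 6, miR-15b-5p was 3.24 times the median of the other 13, miR-15b-3p 0.781 times and miR-16-5p 0.677 times. These correlations describe 1 set of libraries that share their scaling.

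A covariate for red cell RNA was built from miR-451-5p over miR-23a-3p, as a log2 ratio of counts. The ratio itself differed with the group. It ran from -1.23 to 0.58 in controls and from -0.51 to 1.54 in PTU pups. PTU replicates 3, 4, 5 and 6 lay above every control library. With the covariate, the log2 fold changes of miR-16-5p and miR-15b-3p turned to -0.24 ± 0.18 and -0.16 ± 0.19 (SE), and that of miR-15b-5p was 0.28 ± 0.27. miR-497-5p stood at -0.42 ± 0.17 (unadjusted p = 0.0224, adjusted p = 0.452 by edgeR). The denominator, miR-23a-3p, was itself at 7455 CPM in PTU replicate 6 and between 2779 and 4012 CPM elsewhere. Since the covariate and the group go together, this fit cannot tell red cell RNA and PTU apart. The part of red cell RNA in the members' values was not tested otherwise.

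**Figure D4:**
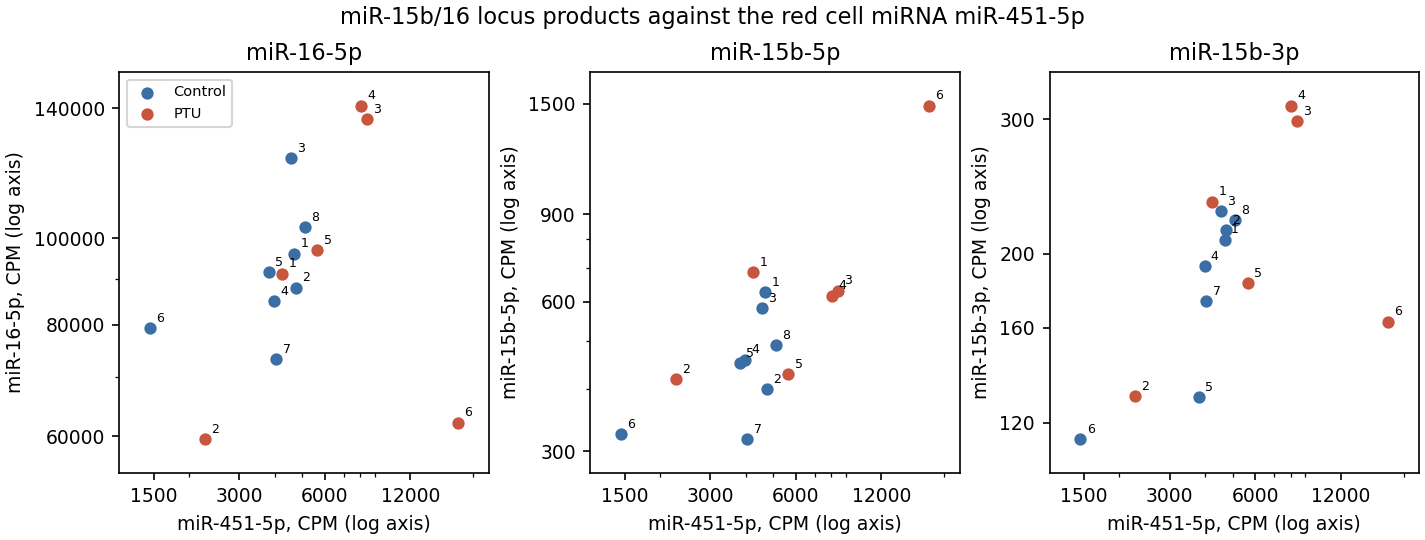
CPM of miR-16-5p, miR-15b-5p and miR-15b-3p (vertical log axes) against CPM of the erythroid miR-451-5p (horizontal log axis), each point 1 library numbered by replicate. PTU replicate 6, at 17616 CPM of miR-451-5p, is low for miR-16-5p, highest for miR-15b-5p and within the control range for miR-15b-3p.

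The wider miR-15/miR-107 group was set beside the family because its members also hold the hexamer AGCAGC at their 5′ end, in capitals here. It starts at base 2 in miR-322-5p and miR-503-5p, neighbours on the X chromosome, and at base 1 in miR-103-3p and miR-107-3p, which lie in introns of pantothenate kinase genes and are linked to lipid and glucose metabolism.
miR-322-5p: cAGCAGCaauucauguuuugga
miR-503-5p: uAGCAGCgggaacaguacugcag
miR-103-3p: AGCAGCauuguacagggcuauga
miR-107-3p: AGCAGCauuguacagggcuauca
In all, 8 of the 343 listed miRNAs with a sequence began this hexamer at base 1 or 2, and they were these 4 and the 4 guide arms. The last pair differ at 1 base (G22C, the base of miR-103-3p first), so their reads could be divided differently by another counter.

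miR-103-3p had the lowest p of the wider group. It ran from 1273 through 1499 to 1753 CPM in controls and from 1487 through 2315 to 2910 CPM in PTU pups, and 5 of 6 PTU libraries lay above the control median. Its log2 fold change was 0.53 ± 0.15 (SE; unadjusted p = 0.0030, adjusted p = 0.179 by edgeR), and 0.40 without PTU replicate 6. With the red cell ratio as covariate it was 0.33 (unadjusted p = 0.0681 by edgeR). miR-107-3p, identical to it but for that base, had 0.16 ± 0.16 (adjusted p = 0.667 by edgeR) and -0.0017 without PTU replicate 6.

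miR-322-5p carries the exact seed of the family and resembled miR-15b-5p in where its high value lay. PTU replicate 6 stood at 3338 CPM, the next highest PTU library at 582 CPM and the highest control library at 760 CPM. With all libraries the fit gave 0.73 ± 0.41 (log2, SE; edgeR adjusted p = 0.451), which turned to -0.30 ± 0.14 without that library. miR-503-5p, from the same X-linked cluster, did not rise there: PTU replicate 6 was its lowest PTU library at 684 CPM, and its log2 fold change was 0.18 ± 0.14 (adjusted p = 0.585 by edgeR). It was 0.10 without PTU replicate 2 and 0.08 with upper-quartile factors. Of these 4 relatives, 0 passed the false discovery rate. Differences between members and relatives were not tested.

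Patterns most like each guide arm were taken as the 3 miRNAs outside the family with the highest Pearson correlation of log2 CPM over the 14 libraries. For miR-16-5p these were miR-93-5p (0.96), miR-25-3p (0.91) and miR-142-5p (0.88). miR-93 and miR-25 are made from the miR-106b-25 cluster, and miR-142 is known from blood cells. Within each group the first stayed close, at 0.83 in controls and 0.99 in PTU pups. miR-93-5p averaged 4294 ± 732 CPM in controls (SD, n = 8) and 4689 ± 1679 CPM in PTU pups (SD, n = 6), and its SD, like that of miR-16-5p, was larger in the PTU group.

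For miR-15b-5p the closest were miR-32-5p (0.88), miR-363-3p (0.84) and miR-484 (0.83). Without PTU replicate 6 these were 0.82, 0.52 and 0.47, and that library held 1061 CPM of miR-484 and 166 CPM of miR-363-3p, each the highest of the 14. Correlations with its locus partner miR-16-5p were 0.83 in controls, -0.22 in PTU pups and 0.68 over the 13 libraries without PTU replicate 6.

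The miR-195/497 arms had weaker likenesses. miR-195-5p was closest to miR-200a-3p (0.75), miR-664-3p (0.70) and miR-708-3p (0.65), and miR-497-5p to miR-362-3p (0.60), miR-191a-5p (0.57) and miR-34c-5p (0.53). Within the PTU group the values for miR-195-5p were 0.80, 0.86 and 0.26 in that order. Those for miR-497-5p were 0.39, 0.67 and 0.04. miR-200a is an epithelial miRNA. miR-195-5p and miR-497-5p correlated with each other at 0.38. The closest patterns of every guide arm are the highest of many correlations, and none was tested against chance.

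In the authors' deposited table the family ranked likewise without a member at an FDR below 0.05. The authors' deposited table gives miR-15b-5p a log2 fold change of 0.69 (p-value 0.0145, FDR 0.286), miR-16-5p 0.09 (FDR 0.956) and miR-497-5p -0.25 (FDR 0.659).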

How the data were processed

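Small RNA libraries of serum (8 control and 6 PTU pups) were made with the QIAseq miRNA kit and 22 PCR cycles, per the labels' protocols. The authors deposited 1 table of raw counts for 375 mature miRNAs, with log2 fold changes, mean log2 CPM, p-values and FDR from their own comparison and each group's mean count (a linear signal). The submitters' processing notes name edgeR. Not given in the sources used here were the genome build, the aligner, the reference set of miRNAs, and whether counts are of reads or of unique molecules. Totals are sums over listed miRNAs, not library depth. A count of 3 equalled 1.44 to 6.38 CPM, a floor for counting error only. Each column was tied to its library through the identifier that its title carries.

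Counts were fitted over the whole table with edgeR 4.0.16 in R 4.3.3 (filterByExpr, 357 of 375 kept; TMM; quasi-likelihood test; no covariate). Standard errors are the absolute log2 fold change over the square root of F. log2 CPM used a prior count of 2 and ratios a pseudocount of 0.5. Replicates are separate litters, and no pair within a group was near sampling noise (lowest chi-square per degree of freedom 21.7). Of 6 same-numbered pairs, 2 had correlated deviations over 0.1, so numbers were not taken to pair the libraries. Alternatives included DESeq2 1.42.0, limma-voom (limma 3.58.1), other scalings and filters, and leaving out each library. The fit was tested on simulated data, in 10 runs with 60 of 357 miRNAs changed. It recovered 33% of 1.5-fold changes, 81.5% of 2-fold and 94% of 3-fold changes, and 4.36% of its calls were false. Most 1.5-fold changes were thus missed. Named miRNAs were all members, the miR-15/miR-107 relatives, the 3 closest patterns of each guide arm and marker lists, and miR-23a-3p as the denominator of the red cell ratio. The members and lists were chosen with earlier results of these data known. miRNA sequences and gene order are from RefSeq.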

Additional observations from a re-analysis of the deposited data

Results flagged for a closer look

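PTU replicate 6 lay far from the rest of its group for miR-15b-5p (1488 CPM), miR-322-5p (3338 CPM) and miR-107-3p (264 CPM). It also did so for the log2 ratios of miR-15b-5p to miR-15b-3p (3.19) and of miR-16-5p to miR-15b-5p (5.38). Control replicate 1 lay far below the other controls for miR-195-5p (89.7 CPM). These are 6 of 30 sets of values examined, members, relatives and ratios in each group. Chance marks about 1 in 20 of separate sets. Here the sets are not separate. All flags but that of Control replicate 1 come from PTU replicate 6, and both flagged ratios reuse its miR-15b-5p count. The 6 can therefore not be set against that rate. Over all tested miRNAs, PTU replicate 6 exceeded the median of the other 13 libraries most for miR-29b-3p (24.3 times), miR-484 (17.5 times), miR-141-3p (10.7 times) and miR-322-5p (6.58 times), and miR-15b-5p was number 14 of 357.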

How the results depend on the processing

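No alternative called a family member (0 of 6 in 23 of them, 0 of 5 tested with 10 counts required in 10 libraries). Over all miRNAs, DESeq2 called 1 (miR-543-3p), edgeR's likelihood ratio test 3 (miR-484, miR-543-3p and miR-144-3p), and leaving out single libraries gave 0 to 1 (miR-203b-3p, without PTU replicate 5). For miR-16-5p the log2 fold change, 0.08 with all libraries, turned to -0.022 with upper-quartile factors, -0.24 with the red cell ratio as covariate and -0.0077 with the replicate block (6 numbered pairs, Control replicates 7 and 8 left out), and ran from -0.042 to 0.19 with single libraries left out. miR-15b-3p turned to -0.16 with the red cell ratio as covariate. miR-322-5p was -0.12 by limma-voom and -0.30 to 0.95 with single libraries left out, and miR-107-3p -0.0017 to 0.24; the lowest values were without PTU replicate 6. miR-15b-5p ran from 0.26 to 0.79 in these fits (adjusted p 0.206 to 0.791 over all alternatives, edgeR, DESeq2 and limma), and was 0.45 with the replicate block, which called 0 miRNAs. Only 1 of the 6 PTU libraries correlated best with the control of its own number. Upper-quartile factors shifted the median of all miRNAs by -0.11 and the use of no factors by 0.09. From these 2 scalings miR-195-5p was -0.30 and -0.10 (-0.19 with TMM), miR-497-5p -0.39 and -0.17 (-0.27 with TMM), miR-15b-3p 0.14 and 0.34 (0.25 with TMM), miR-503-5p 0.08 and 0.25 (0.18 with TMM) and miR-107-3p 0.03 and 0.28 (0.16 with TMM). The cause of these shifts was not tested. miR-195-3p rested on 5 to 20 counts per library, where counting error is largest among the members.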
